A study of Homo sapiens with 6 samples.

Results

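In exosomes from H9 cells, 6 miRNAs had a higher mean signal in substate 2 than in substate 1, relative to the other miRNAs on the same array. The 6 were hsa-miR-135b-5p, hsa-miR-324-5p, hsa-miR-361-5p, hsa-miR-551b-3p, hsa-miR-598-3p and hsa-miR-766-3p, out of 2549 human miRNAs on the array. They were picked by name because their signal was higher in substate 2 and because they lie outside the large pluripotency-related miRNA clusters. Their differences between the substates are therefore given as a description, with no test. H9 is an established human embryonic stem (ES) cell line, and it was grown in the same way for all arrays, on Matrigel in TeSR-E8 medium. The study distinguished substate 1, with colonies strong in the R-10G keratan sulfate epitope and without vimentin at the surface, from substate 2, with weaker R-10G and with vimentin. Exosomes were taken from the medium with ExoQuick-TC, and their RNA was hybridised in a single colour to Agilent miRNA arrays. In each of 3 experiments there was 1 array of substate 1 and 1 of substate 2. In experiment 1, substate 1 was at passage 41 and substate 2 at passage 52, and 72.4 ng of RNA was labelled for each. Experiment 2 used passages 46 and 61 with 100 ng each, and experiment 3 used passages 50 and 65 with 51.4 ng each. Substate 2 thus had the later passage in every experiment, so substate and passage cannot be told apart. All arrays come from 1 cell line, and p-values below measure the spread between these arrays alone.

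A miRNA is cut from one arm of a hairpin precursor, and the arms are named 5p and 3p. It guides a silencing complex to mRNAs that pair with its seed, a short stretch near its 5′ end, so miRNAs with the same seed share many targets. Exosomes are small vesicles released by cells, and their miRNA content reflects both what the cell makes and what it exports. In exosomes precipitated from medium, RNA inside and outside vesicles cannot be told apart. Both arrays of an experiment had the same mass of RNA labelled, so the signals do not measure vesicle number or RNA per vesicle.

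The mature sequences are shown because they set the targets, the relatives and the cross-pairing of these miRNAs. They are from RefSeq (GRCh38.p14), 5′ to 3′, with the seed (bases 2 to 8) in capitals, for 4 of the 6.
hsa-miR-135b-5p: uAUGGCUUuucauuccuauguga
hsa-miR-324-5p: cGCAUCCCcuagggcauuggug
hsa-miR-361-5p: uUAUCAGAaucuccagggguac
hsa-miR-551b-3p: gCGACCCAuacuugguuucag
No seed was shared among these 4. miR-135b-5p shared its seed with 1 other miRNA on the array, miR-135a-5p, and miR-551b-3p shared its seed with 1, miR-551a. miR-324-5p and miR-361-5p shared theirs with 0 of the 2248 array miRNAs whose sequence was matched.
hsa-miR-135a-5p: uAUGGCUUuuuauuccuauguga
hsa-miR-551a: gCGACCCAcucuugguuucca
Counted from the 5′ end, miR-135b-5p and miR-135a-5p differ at 1 of 23 bases (C11U, with the base of miR-135b-5p first). miR-551b-3p and miR-551a differ at 4 of 21 bases (U9C, A10U, A20C and G21A). The GC content of the 4 sequences ran from 34.8% for miR-135b-5p to 63.6% for miR-324-5p. A comparison of GC with the other miRNAs was void, because a sequence was used for only 4 of the 6.

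The mature forms lie on several chromosomes. In GRCh38.p14, miR-135b-5p is at chr1:205448361-205448383 on the minus strand, within the annotated bounds of LEMD1 and BLACAT1. miR-324-5p is at chr17:7223343-7223364 on the minus strand, within the bounds of ACADVL. miR-361-5p is at chrX:85903681-85903702 on the minus strand, within the bounds of CHM, and miR-551b-3p is at chr3:168551914-168551934 on the plus strand, within the transcribed pseudogene EGFEM1P. The gene of miR-598 lies within XKR6 and that of miR-766 within SEPTIN6. For all 6, the annotation used here listed 0 other miRNA genes within 10 kb, so none of them is part of a tight miRNA cluster by this measure.

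Between 310 and 594 human miRNAs were detected per array. In substates 1 and 2 there were 594 and 527 in experiment 1 (72.4 ng) and 465 and 470 in experiment 2 (100 ng). Experiment 3 (51.4 ng) had 332 and 310. The scanner software gives a total signal per miRNA, in intensity units, and it reckoned this with an effective feature size fraction of 0.791 on the array of substate 1 in experiment 1 and with its default of 0.6 on the other 5 arrays. The total signal for the same spot brightness was thereby 1.32 times larger on that array. Unscaled signals below are given at the default feature size, and signals relative to the same array are not touched by this factor. The 99th percentile of the human miRNAs was lower in substate 2 in every experiment, at 0.744, 0.794 and 0.695 times that of substate 1 in experiments 1, 2 and 3. Of 8 ES cell miRNAs, 5 were detected on all 6 arrays and miR-372-3p on none, and the markers of liver and muscle were detected on none. In percent of the 99th percentile, the 8 summed to 1175, 854 and 1397 in substate 1 for experiments 1, 2 and 3. In substate 2 they summed to 813, 1209 and 1002. The 4 neural markers summed to 2.93% to 3.15% of the 99th percentile in substate 1 and to 3.49% to 6.25% in substate 2, with both arms of miR-9 undetected throughout. Unscaled, the detected miR-124-3p and miR-128-3p were both lower in substate 2 in experiments 1 and 3 and higher in experiment 2. The 4 epithelial markers summed to 10.6% to 14.7% in substate 1 and to 6.22% to 10.05% in substate 2. Most of this was miR-205-5p alone, at 12.9%, 14.0% and 9.87% in substate 1 and at 6.22%, 9.68% and 6.82% in substate 2, and miR-141-3p was undetected throughout. The blood markers summed to at most 0.946%, with 4 of 5 undetected throughout, and the mesenchymal markers to at most 0.361%, with 3 of 4 undetected throughout. The part of these cell types in the results below was not tested.

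miR-135b-5p and miR-361-5p had the strongest and cleanest signals of the 6, with all 20 spots of each well above background on every array. miR-135b-5p is known as a miRNA that PAX6 induces in human neuroectoderm, where it represses TGF-β and BMP signalling. In percent of the 99th percentile of the array, miR-135b-5p stood at 5.25, 3.61 and 6.43 in substate 1 and at 9.45, 14.9 and 11.6 in substate 2, for experiments 1, 2 and 3. Every array of substate 2 was above every array of substate 1, and the lowest substate 1 array was paired with the highest of substate 2. The difference was 1.25 ± 0.69 on the log2 scale (SD over experiments, n = 3), with 2.05 in experiment 2 against 0.85 and 0.86 in experiments 1 and 3.

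miR-361-5p, known as a repressor of the angiogenic factor VEGFA, stood at 5.61, 5.92 and 5.29 in substate 1, in percent of the 99th percentile. In substate 2 it stood at 10.9, 20.4 and 14.6. The 3 substate 1 arrays were nearly equal, and the spread among the differences came from substate 2. The log2 difference was 1.40 ± 0.42 (SD, n = 3), the largest mean of the 6.

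miR-551b-3p, studied mainly in ovarian cancer, was weaker but was detected on all 6 arrays. It stood at 0.896, 0.986 and 1.48 percent of the 99th percentile in substate 1 and at 2.50, 3.70 and 2.42 in substate 2. The groups did not overlap, and experiment 3, with the highest substate 1 array and the lowest of substate 2, gave the smallest difference. The log2 difference was 1.36 ± 0.61 (SD, n = 3).

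miR-766-3p was also detected on all 6 arrays, at 1.10, 0.797 and 0.401 percent of the 99th percentile in substate 1 and at 1.52, 1.90 and 1.68 in substate 2. The 3 arrays of substate 2 were nearly even, whereas those of substate 1 were spread, with the lowest in experiment 3. Unlike for the other miRNAs, experiment 3 gave the largest difference, with log2 values of 0.47, 1.26 and 1.96 and a mean of 1.23 ± 0.75 (SD, n = 3). The array of substate 1 in experiment 3 lay below the floor of 0.431% to which low values were raised, and only 2 of its 20 spots were well above background.

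miR-598-3p and miR-324-5p lay at the limit of detection. miR-598-3p stood at 0.499 and 0.503 percent of the 99th percentile in substate 1 of experiments 1 and 2 and was not detected in experiment 3, where its stronger probe had 2.91 times its error, just short of the 3 needed. In substate 2 it was detected on all 3 arrays, at 1.27, 1.64 and 0.884 percent. The log2 difference was 1.37 ± 0.34 (SD, n = 3), in which the undetected array is at the floor. It was 0.30 both with quantile normalisation and from the spot signals averaged over probes, and 2.24 from the log2 values deposited by the authors. In experiment 3 the stronger probe gave an unscaled signal of 1.02 in substate 1, undetected, against 1.11 in substate 2, detected.

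miR-324-5p, known to repress the potassium channel Kv4.2 in neurons and hedgehog signalling in cerebellar progenitors, was detected on 1 of 3 arrays in substate 1 and on 2 of 3 in substate 2. The detected values were 0.252 percent of the 99th percentile in substate 1 of experiment 1, and 1.36 and 1.27 percent in substate 2 of experiments 1 and 2. In experiment 3 neither array detected it, and the limit of 3 errors allowed up to 0.563 percent in substate 1 and 0.710 percent in substate 2. All 3 substate 1 arrays and the substate 2 array of experiment 3 are at the floor in the log2 difference of 1.07 ± 0.93 (SD, n = 3), and the mean was 2.06 with a floor for each array and 1.71 with signals under 1 set to 1. From the spot signals averaged over probes, with a common floor set anew on the probes, it was 0.04. From the log2 values deposited by the authors it was 2.71.

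**Figure D1:**
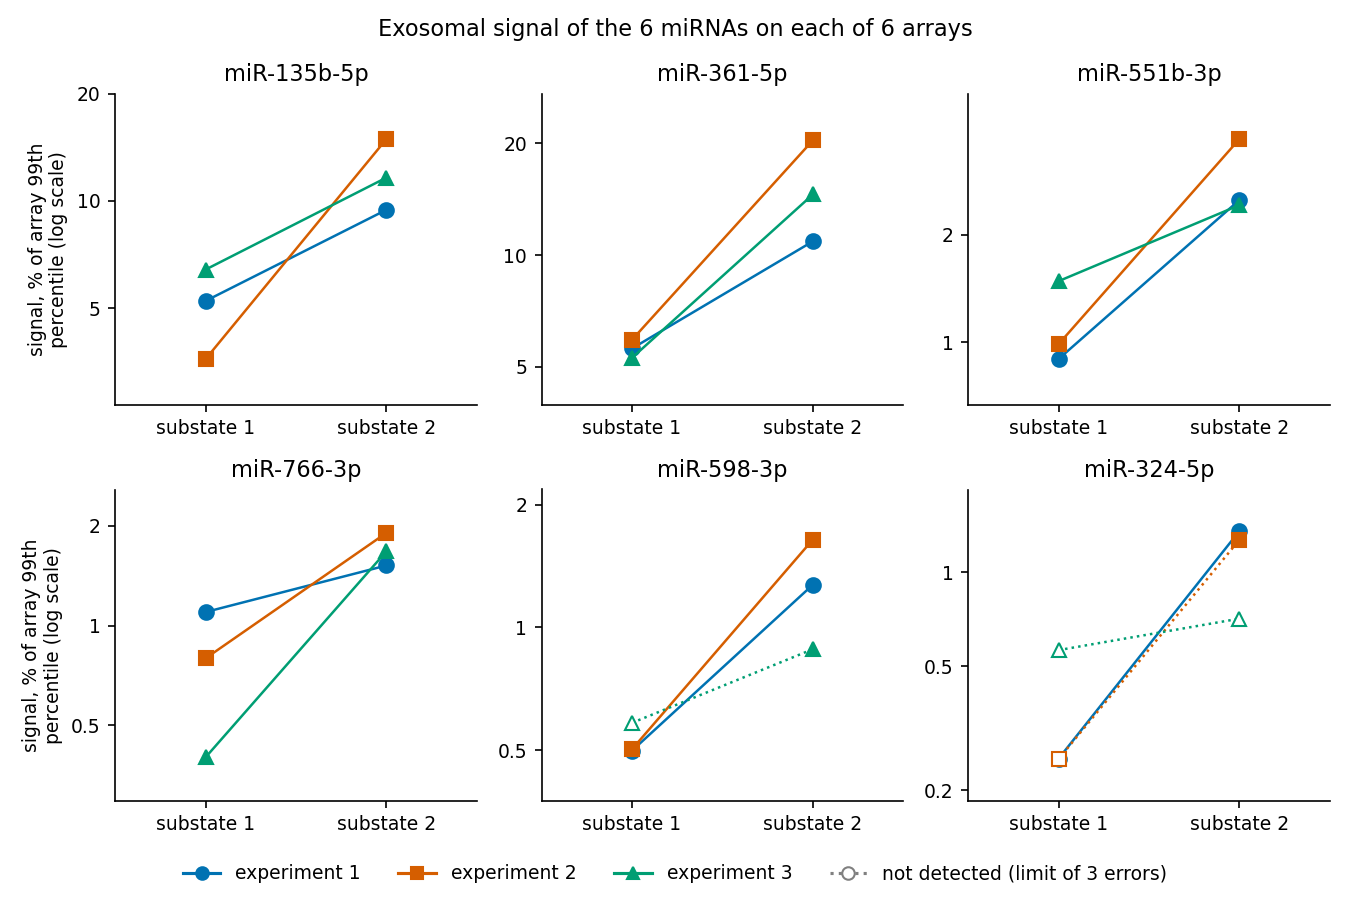
Signal of each miRNA on each array, as a percentage of the 99th percentile of that array's human miRNAs on a log axis, with a line joining the substates of an experiment. Open symbols and dotted lines mark arrays where the miRNA was not detected, placed at the limit of 3 errors. miR-361-5p sits between 5.29 and 5.92 in substate 1 and between 10.9 and 20.4 in substate 2, whereas miR-324-5p rests on 3 detected arrays.

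All 6 miRNAs had a mean difference of at least 2-fold, which 4.85% of the 474 miRNAs detected on at least 3 arrays had, while 4.64% were at least 2-fold lower. Under other settings the number of the 6 at least 2-fold higher was as low as 0 (normexp background correction). The scaled signal was higher in substate 2 in all 3 experiments for 5 of the 6 (21.1% of the 474), the exception being miR-324-5p. The same 5 had every substate 2 array above every substate 1 array (11.8% of the 474). Nothing is read from these shares, as the miRNAs were chosen on this difference. Their median difference was 1.31 on the log2 scale, with a median of -0.01 over the 474, and their ranks from the largest rise ran from 5 for miR-361-5p to 21 for miR-324-5p. Near the lowest of them, miR-140-5p at 1.08 lay just above miR-324-5p at 1.07, and miR-4787-3p at 1.05 just below it.

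The 3 experiments did not weigh equally. Experiment 2 gave the largest difference for 4 of the 6 (miR-135b-5p, miR-361-5p, miR-551b-3p and miR-598-3p), experiment 1 for miR-324-5p and experiment 3 for miR-766-3p. The median over the 6 was 1.16 in experiment 1, 1.75 in experiment 2 and 0.95 in experiment 3, while the median over the 474 stayed between -0.04 and 0 in each. Experiment 1 was on a slide and scan of its own, and experiments 2 and 3 shared the other. Within the first slide the differences ran from 0.47 for miR-766-3p to 1.65 for miR-324-5p, and within the second their means ran from 0.78 for miR-324-5p to 1.62 for miR-361-5p. The passage gap was 11 in experiment 1 and 15 in the other 2, and its part was not tested.

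Where both arrays of a pair detected them, the 6 miRNAs were also higher without scaling. For miR-324-5p this was experiment 1 alone, and for miR-598-3p experiments 1 and 2. At the default feature size and with no scaling, the total signal was higher in substate 2 in 15 of the 15 experiment pairs in which a miRNA was detected on both arrays. In 13 of these 15 the difference was over 2 times the error the scanner software gives. The exceptions were miR-766-3p in experiment 1 (0.04 on the log2 scale) and miR-551b-3p in experiment 3 (0.18). Pairs past this limit were not counted over all tested miRNAs, so nothing is read from the 13. The 4 miRNAs detected on all 6 arrays were higher unscaled in all 3 experiments, which 8.65% of the 289 such miRNAs were. Over all tested miRNAs detected on both arrays of a pair, 16.7%, 35.5% and 21.5% were higher unscaled in experiments 1, 2 and 3. Nothing is read from these shares or the unscaled ones below, as the miRNAs were chosen for a higher signal in substate 2.

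miR-135b-5p had an unscaled total signal of 18.9, 12.8 and 11.6 in substate 1 and of 25.4, 42.0 and 14.5 in substate 2. miR-361-5p had 20.2, 21.0 and 9.51 in substate 1 and 29.3, 57.4 and 18.2 in substate 2. These signals are compared within experiments, since the labelled amount differed between them. Divided by the ng labelled, still with no percentile scaling, miR-135b-5p stood at 0.262, 0.128 and 0.225 in substate 1 and at 0.351, 0.420 and 0.283 in substate 2. Per ng, every array of substate 2 was above every array of substate 1 for miR-135b-5p, miR-361-5p and miR-551b-3p, which are 3 of the 4 detected on all 6 arrays (3.11% of the 289 such miRNAs). miR-766-3p overlapped, with 0.0407 in substate 2 of experiment 3 below 0.0548 in substate 1 of experiment 1.

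The unscaled signal in experiment 2 was at least 2-fold higher for 4 of the 5 miRNAs detected on both arrays, against 10.8% of 408 miRNAs. For miR-135b-5p it was 3.28 times higher, for miR-551b-3p 2.98 times, for miR-361-5p 2.73 times and for miR-598-3p 2.60 times. miR-766-3p was 1.90 times higher. In experiments 1 and 3, by contrast, miR-135b-5p was 1.34 and 1.26 times higher, or 0.42 and 0.33 on the log2 scale, against 0.85 and 0.86 after scaling.

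**Figure D2:**
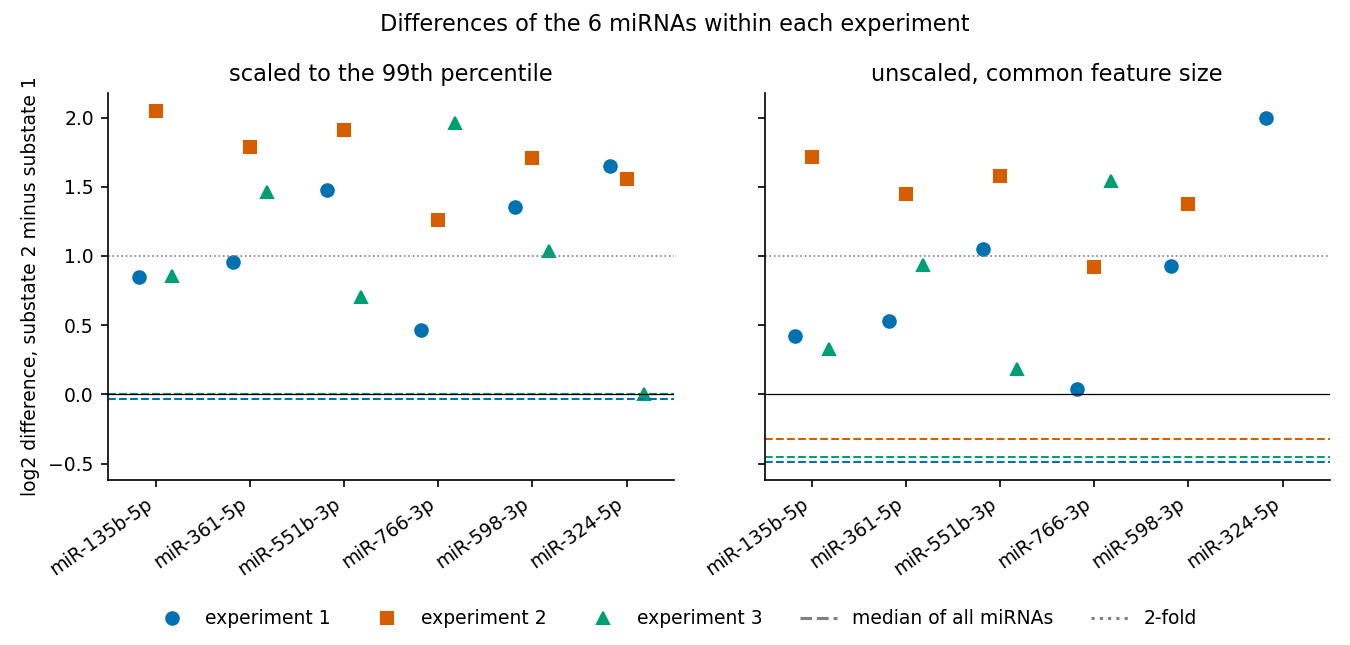
Log2 difference of substate 2 minus substate 1 within each experiment, scaled to the 99th percentile of the array at the left and unscaled at the default feature size at the right. Dashed lines are the median of all tested miRNAs in each experiment and the dotted line is 2-fold. Scaled values include arrays set to the floor, and unscaled values are shown only where both arrays detected the miRNA, all 15 of them above 0 and above the dashed lines, which lie between -0.49 and -0.32.

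The 6 miRNAs were covered by 15 probes in all, from 2 to 4 each. The total signal of a miRNA was found to be the sum of those probes whose signal passed 3 times their error, so a probe that crosses this limit in 1 array adds to the difference. Of 45 probe and experiment pairs, 29 had the probe past the limit on both arrays. The scaled signal was higher in substate 2 in all 29, and the unscaled signal in 28, with 1 probe of miR-766-3p in experiment 1 at -0.04. These counts are a description. Probes of a miRNA share its RNA and are not replicates, and they make up the signal on which the 6 were chosen. Where more than 1 probe of a miRNA could be compared, the largest gap between them was 0.41 on the log2 scale and the smallest 0.02.

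For miR-135b-5p and miR-361-5p the same probes counted on all 6 arrays. The 2 probes of miR-135b-5p gave 2.02 and 2.07 in experiment 2 and differed by at most 0.11 in any experiment. The 2 probes of miR-361-5p differed by at most 0.25. Within an array, the spots of a probe of these 2 miRNAs varied with a median coefficient of variation of 9.02% and 9.03%, whereas it was 29.6% for miR-598-3p and 26.6% for miR-324-5p.

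For the other 4 miRNAs more probes counted in substate 2 in at least 1 experiment, in 7 of the 15 pairs in all. The case with the greatest effect was miR-766-3p in experiment 3, with 1 of its 4 probes counted in substate 1 and 3 in substate 2. The total gave a scaled difference of 2.06 before the floor, whereas the 1 probe counted on both arrays gave 0.63. Compared by shared probes alone, miR-766-3p differed by 0.47, 1.03 and 0.63 in experiments 1, 2 and 3, and experiment 3 no longer stood apart.

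miR-598-3p gave 0.95 and 1.29 by its shared probe in experiments 1 and 2, against 1.35 and 1.71 by the total signal. miR-551b-3p gave 1.26 and 1.68 by shared probes there, against 1.48 and 1.91. For miR-324-5p the only shared probe, in experiment 1, gave 1.52 against 2.42 by the total before the floor. By shared probes the scaled difference was above 0 in 15 of 15 pairs and at least 2-fold in 8 of them, again as a description. Shared probes were not compared in this way over all tested miRNAs.

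**Figure D3:**
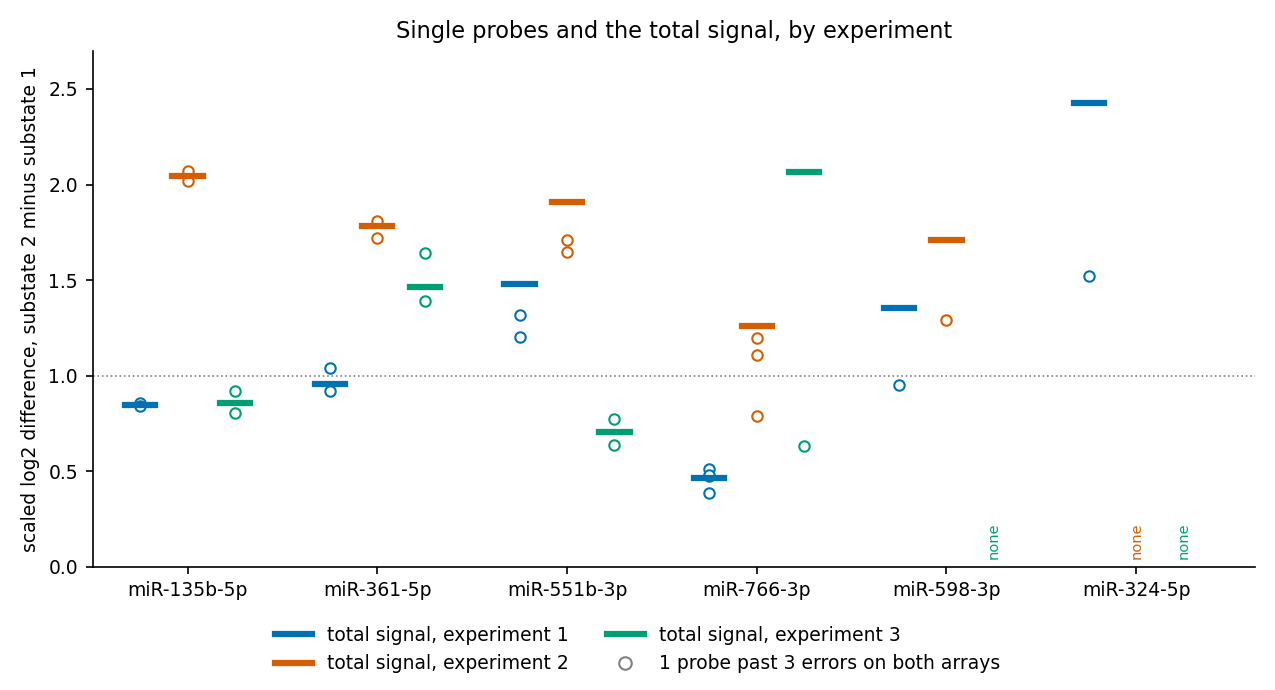
Scaled log2 difference of substate 2 minus substate 1 for each probe that passed 3 errors on both arrays (open circles) and for the total signal before the floor (bars), by experiment, with "none" where no probe could be compared. The dotted line is 2-fold. Bars lie among the circles for miR-135b-5p and miR-361-5p and above them where substate 2 counted more probes, most of all for miR-766-3p in experiment 3 (2.06 against 0.63).

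By the detection mark of the software, the 6 miRNAs were detected on 15 of 18 arrays in substate 1, counted over miRNAs and arrays, and on 17 of 18 in substate 2. Nothing is read from this, as the 6 were chosen on their signal. Over all human miRNAs, 594, 465 and 332 were detected in substate 1 and 527, 470 and 310 in substate 2, for experiments 1, 2 and 3. Being well above background in at least 1 spot gave 16 and 17, and a mark of positive and significant in at least 50% of the spots gave 18 and 18. Of the 6, 4 were detected on all 6 arrays, as were 61% of the 474.

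Partner arms, same-seed relatives and the other arm of the miR-135a hairpin were not used in choosing the 6, and they could be tested. This list too was chosen with earlier results of these data known. Same-seed relatives were sought only for the 4 miRNAs with a sequence, thus not for miR-598-3p and miR-766-3p. Of the 9 relatives listed, 3 were detected on enough arrays for a test, 1 was detected on a single array and 5 on none. The 5 were miR-135b-3p, miR-551b-5p, miR-598-5p, miR-766-5p and the same-seed miR-551a. Thus 5 of the 6 hairpins gave an exosomal signal from 1 arm only or almost only, with miR-361-3p detected on the substate 2 array of experiment 2 alone, at 0.654 percent of the 99th percentile.

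The exception was the hairpin of miR-324. Its 3p arm stood at 2.84, 2.46 and 2.11 percent of the 99th percentile in substate 1 and at 3.84, 4.69 and 3.76 in substate 2, and the groups did not overlap. The log2 difference was 0.73 ± 0.26 (SD, n = 3), and it did not pass the test (limma, adjusted p = 0.167). miR-324-3p was thus detected on all 6 arrays, its 5p arm on 3. On the unscaled signal the difference in experiment 1 was 0.01.

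The close relative miR-135a-5p moved by 0.65, 2.00 and 0.48 in experiments 1, 2 and 3, beside 0.85, 2.05 and 0.86 for miR-135b-5p. Its substate 1 array of experiment 2 was at the floor, with 1 of 20 spots well above background, and the difference there was 2.41 without the floor and 1.89 by the only probe counted on both arrays. Unscaled, its difference in experiment 3 was -0.04. Its mean log2 difference was 1.04 ± 0.83 (SD, n = 3), which did not pass the test (limma, adjusted p = 0.247), and its groups overlapped. With 1 base between the 2 miRNAs, a probe may bind both, and the share of each signal that is cross-binding was not tested. The other arm of the miR-135a hairpin, miR-135a-3p, had a log2 difference of 0.43 ± 0.43 (SD, n = 3). It did not pass the test either (limma, adjusted p = 0.299). Per ng with no percentile scaling it was -0.00094 at a common feature size, and -0.13 with each array's own feature size.

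**Figure D4:**
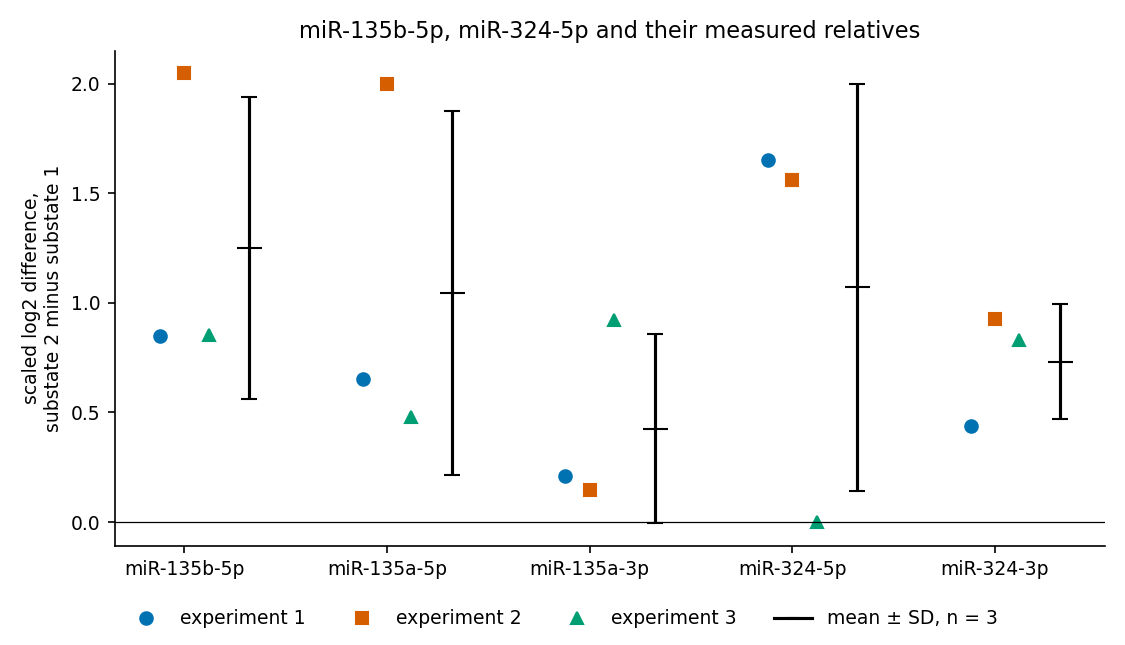
Scaled log2 difference of substate 2 minus substate 1 by experiment for miR-135b-5p, miR-324-5p and those of their relatives that could be tested, with the mean and SD over 3 experiments. Experiment 2 is the highest for both miR-135a-5p (2.00, with the substate 1 array at the floor) and miR-135b-5p (2.05), and miR-324-3p is above 0 in each experiment whereas miR-324-5p is at the floor on both arrays of experiment 3.

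Of the 285 other miRNAs detected on all arrays, those most like each of the 4 fully detected miRNAs across the 6 arrays were named by Pearson's r of the scaled log2 signal, as a description. For miR-135b-5p these were miR-374b-5p (r = 0.989) and miR-106b-5p (r = 0.976). For miR-361-5p they were miR-130b-3p (r = 0.995) and miR-363-3p (r = 0.983), and for miR-551b-3p miR-374a-5p (r = 0.995) and again miR-106b-5p (r = 0.974). For miR-766-3p they were miR-484 (r = 0.977) and miR-324-3p (r = 0.956). With 6 arrays in 2 substates, any miRNAs that differ between the substates correlate. Among the 4 themselves, r ran from 0.635 for miR-551b-3p with miR-766-3p to 0.951 for miR-135b-5p with miR-551b-3p, and miR-766-3p took part in the 3 lowest.

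Over the 474 miRNAs, limma with experiment as a block called 0% higher and 0% lower at an adjusted p under 0.05 and at least 2-fold, while 46 (9.7%) were higher and 63 (13.3%) lower at an unadjusted p under 0.05. The methods' paired t-test, run on the values scaled and floored here, called 0 with Benjamini-Hochberg adjustment over all tested miRNAs. The study itself tested only miRNAs with a 2-fold difference, so the next result differs in both set and adjustment. With Storey's q among the 45 miRNAs of at least 2-fold, the estimated share of unchanged miRNAs was 0, which sets every q to 0. It thus called all 23 that were higher, these 6 included, and all 22 that were lower, with single p-values up to 0.257. This call equals the 2-fold filter here and is no test of the 6.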

How the data were processed

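Signal intensity was deposited by the authors for 6 single-colour Agilent miRNA arrays, from Feature Extraction 12.0.3.2 in experiment 1 and 11.5.1.1 in experiments 2 and 3. The total signal of a miRNA sums its probes past 3 times their error (tested on all 15294 miRNA and array pairs), and 0.1 stands for an undetected one. The log2 values deposited by the authors were processed in GeneSpring, which per the methods set signals under 1 to 1 and scaled to the 99th percentile, and served as an alternative here. The number of arrays limits the precision.

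Here, total signals were divided by the 99th percentile of the 2549 human miRNAs of the array, raised to a floor of 0.431% of it (on each array the lowest detected signal was found, and the highest of these taken) and taken to log2. Unscaled signals were brought to the default feature size of 0.6, except in the plain per ng alternative, which kept each array's own size. Two-sided moderated tests of limma 3.58.1 (R 4.3.3) were run on the 474 miRNAs that 3 or more arrays detected. The experiment was a blocking factor, p-values were adjusted after Benjamini and Hochberg over all of them, and the fit was tested on simulated data. Pairing of arrays follows their numbering by experiment and the study's own paired test. Deviations of the 2 arrays of an experiment from their substate means correlated at 0.674, 0.0307 and 0.517. Named are the 6, their partner arms and the same-seed miRNAs of the 4 with a sequence. Also named are the other arm of the miR-135a hairpin and the 2 miRNAs most like each of the 4 detected on all 6 arrays. Alternatives were other scalings, floors, probe summaries, filters, blocks and tests, and leaving out each experiment. The normexp correction used the median spot intensity. The sum over all probes and the scaling at a common feature size were chosen after seeing the data. The miRNAs and lists were chosen with earlier results of these data known.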

Additional observations from a re-analysis of the deposited data

How the results depend on the processing

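The median log2 difference of the 6 miRNAs was 1.31 and was above 0 under all 13 alternatives, as were all 78 values of single miRNAs under them. Nothing is read from these signs, as the 6 were chosen for a higher signal in substate 2 on these same arrays. The median was 0.85 with quantile normalisation, 0.82 per ng with no percentile scaling, 0.63 from spot signals averaged over probes and 0.56 with normexp and an offset of 50, and between 1.14 and 1.49 without one experiment. The plain per ng values kept each array's own feature size. Per ng at a common feature size the median was 0.96, and summed over all probes it was 1.25. Of the 6, all 6 were at least 2-fold higher as reported, 0 with normexp, 1 per ng, 2 per ng at a common feature size, 2 from averaged spot signals, 3 with quantile normalisation, 4 summed over all probes and 5 from the deposited log2 values. Without one experiment the number was 4 or 5. Per ng at a common feature size the median of all tested miRNAs was -0.38, and plainly per ng it was -0.51. With normexp it was 0.32. Over the 13 alternatives, single values ranged from 0.04 to 2.71 for miR-324-5p, from 0.30 to 2.24 for miR-598-3p and from 0.42 to 1.61 for miR-766-3p. They ranged from 0.60 to 1.69 for miR-551b-3p, from 0.69 to 1.45 for miR-135b-5p and from 0.84 to 1.62 for miR-361-5p. The cause was not tested.

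The 6 chosen miRNAs had 2 more detections in substate 2 than in substate 1. This number was 1 by spots well above background, 0 by spots positive and significant, and between 1 and 2 without one experiment. The number of limma calls was 0 of 474. It was 3 with normexp (1 higher, 2 lower), 7 of 289 miRNAs detected on all 6 arrays (5 higher, 2 lower), 1 with no replicate block (0 higher, 1 lower) and 45 by the methods' t-test with Storey's q (23 higher, 22 lower), and 0 without any one experiment. With no replicate block, 0 of the 3 tested relatives were called, as with it. With normexp, adjusted p-values were 0.00876 for miR-135a-5p and miR-324-3p and 0.0134 for miR-135a-3p, at differences under 2-fold. miR-135a-3p was at -0.13 per ng with each array's own feature size and at -0.00094 per ng at a common feature size. Where a miRNA was detected, its signal over error was as low as 3.41 for miR-324-5p, 3.56 for miR-598-3p and 3.95 for miR-766-3p.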
